A study of Homo sapiens with 12 samples.

Results

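A set of 10 genes of mucin-type O-glycosylation was followed in Ls174T, a line from a human colorectal carcinoma, after Wnt signalling had been blocked at 2 points. They were GALNT3, GALNT4, GALNT7, GALNT12, C1GALT1, C1GALT1C1, GCNT3, B3GNT6, ST6GALNAC1 and FUT2, and every probe set whose annotation holds exactly 1 of these symbols was taken. This gave 17 of the 54675 probe sets on the array and covered 9 of the 10 genes. The 2 probe sets of GALNT4 carry several symbols, so GALNT4 is not analysed here. There were 2 derivatives of the line, with 3 arrays in each of 4 groups and 12 arrays in all. In the Ls174T-pTER-β-catenin derivative, 72 h of doxycycline induced a short hairpin RNA (shRNA) that depletes β-catenin, the coactivator which Wnt ligands stabilise. Its reference was the same derivative without doxycycline. In the Ls174T-L8 derivative, 24 h of doxycycline induced dominant-negative Tcf4, a version of the transcription factor Tcf4 that β-catenin cannot activate, and its reference was Ls174T-L8 without doxycycline. The inducer differs between the groups of a derivative together with the construct, no array with doxycycline alone was used here, and the labels do not say whether the derivatives are single clones. Nor do they say whether the 3 arrays stand for separate cultures, and p-values measure only the spread between arrays. Their number limits the precision.

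Mucins carry dense O-linked sugar chains that begin with N-acetylgalactosamine (GalNAc) on serine or threonine. The GALNT enzymes add this first sugar in the Golgi. C1GALT1 then adds galactose to make the core 1 structure and needs the chaperone C1GALT1C1, also called Cosmc, to fold. GCNT3 builds the branched core 2 and core 4 structures, and B3GNT6 builds core 3, which is typical of the colon. ST6GALNAC1 instead caps the first GalNAc with sialic acid, which gives the sialyl-Tn antigen, and FUT2 adds the terminal fucose of the H antigen. In the colon these chains hold water and form the mucus made by goblet cells.

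The constructs were read first. The brightest of 3 probe sets of CTNNB1, the gene of β-catenin, averaged 156 ± 21.4 with the shRNA induced and 3784 ± 195 uninduced (signal in arbitrary units, SD, n = 3 each). The probe set of TCF7L2, the gene of Tcf4, with the largest change averaged 1286 ± 499 with dominant-negative Tcf4 induced and 108 ± 29.5 uninduced (SD, n = 3 each). The median signal of an array was 12.1 to 15.3, and correlations between arrays of a group, across genes, between 0.968 and 0.976. All 8 colorectal epithelial markers, among them EPCAM, CDH1, KRT8 and VIL1, lay above the filter on dim genes (a mean signal of 10.2) on all 12 arrays. The ratio of 3′ to 5′ signal of the ACTB control, a measure of RNA integrity, was 1.13 to 1.16 with dominant-negative Tcf4 induced and 1.25 to 1.35 uninduced. In the shRNA derivative it was 1.29 to 1.34 induced and 1.32 to 1.39 uninduced, and its part in the results was not tested.

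For the tests, limma was run on log2 signals with a mean for each of the 4 groups, for 1 probe set per gene, the brightest, and p-values were adjusted by Benjamini and Hochberg over 12386 genes. A gene was called, and is said to have risen or fallen, at an adjusted p under 0.05. Of the 9 genes 8 were tested, and B3GNT6 lay below the filter. With the β-catenin shRNA 5 of 8 rose and none fell, where 34% of all genes tested were called (16.6% higher and 17.4% lower). At least 2-fold changes were called for 2 of 8, against 8.62% of all genes. With dominant-negative Tcf4 3 of 8 rose and 1 fell, where 36% of all genes were called (16% higher and 20% lower). Here too 2 of 8 changed at least 2-fold, against 7.56% of all genes. GCNT3, GALNT3 and FUT2 rose in both, GALNT7 was called with the shRNA alone, and ST6GALNAC1 rose with the shRNA and fell with dominant-negative Tcf4. GALNT12, C1GALT1 and C1GALT1C1 were called in neither. The array cannot tell fewer or more cells of a type from less or more RNA per cell.

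The sequence before the start is shown for the 3 genes called higher in both inductions. Of these, GALNT3 lost its call with the shRNA under some alternatives. RefSeq promoters (GRCh38.p14) were matched for 7 of the 10 genes. Each run below covers the 250 bases before the gene start, on the gene's strand, and capitals mark a match to a TCF/LEF word (CTTTGAA or else CTTTGAT, and also CTTTGTA or else CTTTGTT, searched on both strands). GCNT3 lies on the plus strand at chr15:59611533-59611782, GALNT3 on the minus strand at chr2:165794248-165794497, and FUT2 on the plus strand at chr19:48695721-48695970.
GCNT3: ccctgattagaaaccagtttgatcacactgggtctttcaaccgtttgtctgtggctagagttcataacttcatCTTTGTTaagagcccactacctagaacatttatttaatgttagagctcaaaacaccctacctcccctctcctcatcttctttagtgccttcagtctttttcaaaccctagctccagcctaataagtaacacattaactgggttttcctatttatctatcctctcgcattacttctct
GALNT3: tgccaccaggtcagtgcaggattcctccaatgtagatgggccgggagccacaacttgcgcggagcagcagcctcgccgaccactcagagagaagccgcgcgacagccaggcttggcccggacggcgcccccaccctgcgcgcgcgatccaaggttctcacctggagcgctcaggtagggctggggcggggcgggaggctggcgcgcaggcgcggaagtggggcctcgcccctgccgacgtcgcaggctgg
FUT2: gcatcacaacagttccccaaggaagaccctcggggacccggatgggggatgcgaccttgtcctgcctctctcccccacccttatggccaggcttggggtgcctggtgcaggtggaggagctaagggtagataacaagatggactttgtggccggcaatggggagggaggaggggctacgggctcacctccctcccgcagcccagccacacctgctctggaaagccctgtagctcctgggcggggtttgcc
Of the 7 matched promoters that of GCNT3 held 1 such word, which begins 177 bases before the start, and the other 6 held none. The words occur in 12% of all 35116 promoters over the same window. The GCNT3 window was 40.4% G and C, and 13.4% of promoters had less. The other 6 lay between 62.4% and 72.4%, those of GALNT3 and FUT2 at 71.6% and 64%, against a median of 58% over all promoters. A match is a run of letters and was not tested for binding.

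**Figure D1:**
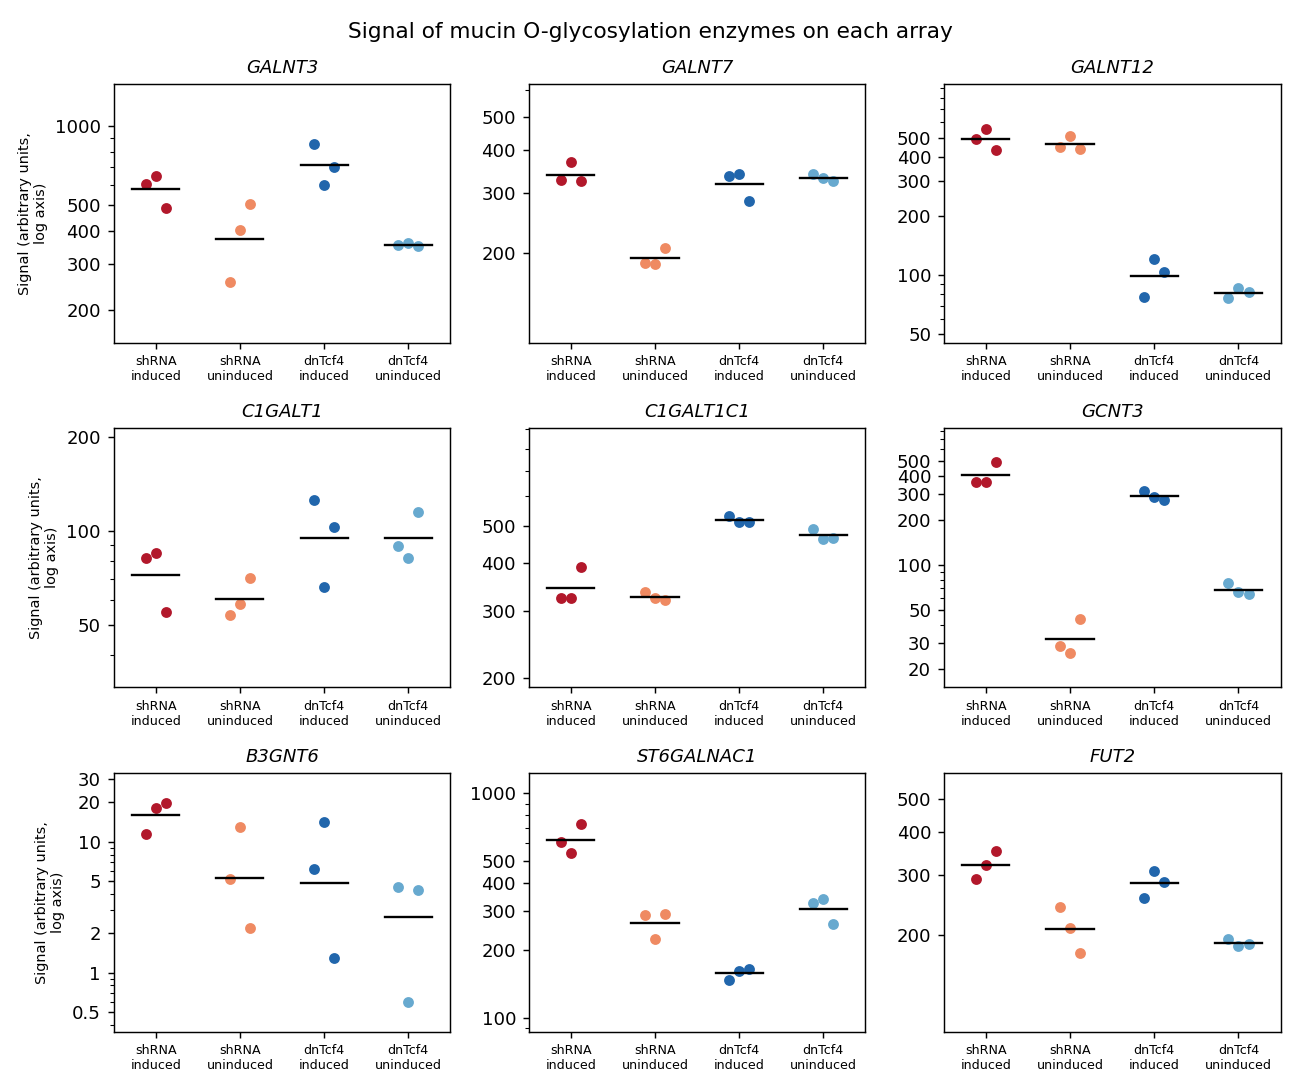
Signal on each array (points, arbitrary units, log axis with its own range in every panel) for 9 genes in the 4 groups, with the geometric mean of 3 arrays as a line; B3GNT6 is shown by its brighter probe set. GCNT3 lies between 360.4 and 490.4 with the shRNA induced, against 25.8 to 43.8 uninduced, and ST6GALNAC1 moves in opposite directions in the 2 derivatives.

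Among the enzymes that add the first GalNAc, GALNT3 was higher in both inductions. GALNT3, which is also known for glycosylating the hormone FGF23, had signals of 604.7, 645.9 and 487.3 with the shRNA induced, against 255.6, 402.6 and 508 uninduced. An uninduced array lay above the lowest induced array, so these groups overlap. Its log2 change (induced minus uninduced, ± standard error) was 0.62 ± 0.19, with an adjusted p of 0.0187 by limma. That call was lost without uninduced array 1 (0.35, adjusted p = 0.109), without induced array 1 (0.59) or 2 (0.54), and with no variance trend (adjusted p = 0.0657). With dominant-negative Tcf4 induced GALNT3 had 854.5, 600.5 and 701.2, against 352.5, 360 and 351.7 uninduced. Here the groups did not overlap, and the log2 change was 1.0 ± 0.19, a 2.01-fold rise with a limma adjusted p of 5.96e-04. The dimmer probe set of GALNT3 gave 4.8 to 15.2 over the 12 arrays, near the floor of the array, and was called in neither induction.

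GALNT7, which prefers peptides that already carry GalNAc, rose with the shRNA. It had 326.1, 368.4 and 324.1 with the shRNA induced, against 187.2, 185.4 and 207.3 uninduced, without overlap. The log2 change was 0.81 ± 0.11 (1.76-fold, limma adjusted p = 1.77e-05). In the Tcf4 derivative it stood at 334.9, 340.8 and 284.1 induced, against 339.5, 332.5 and 325.4 uninduced. These values overlap, with a change of -0.06 ± 0.11 and a 95% interval of -0.29 to 0.17. The uninduced shRNA derivative was thus the low group, and the other 3 groups shared 1 range. The second probe set of GALNT7 had a log2 change of 0.98 ± 0.16 with the shRNA, which passed (adjusted p = 4.52e-04 over all probe sets), and of 0.05 ± 0.16 with dominant-negative Tcf4.

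GALNT12, a GalNAc transferase of the digestive tract, differed between the derivatives and was called in neither induction. It had 77.1, 120.5 and 103.6 with dominant-negative Tcf4 induced and 76.9, 85.8 and 82 uninduced. In the shRNA derivative it had 493.4, 556 and 432.6 induced and 449.8, 511.7 and 440.2 uninduced. Every array of the shRNA derivative was above every array of the Tcf4 derivative, and induced and uninduced arrays overlapped within each. The changes were 0.08 ± 0.15 with the shRNA (95% interval -0.24 to 0.39) and 0.28 ± 0.15 with dominant-negative Tcf4 (-0.04 to 0.60). Without dominant-negative Tcf4 induced array 1 the second was 0.46 and passed (adjusted p = 0.019).

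The genes of core 1 synthesis were called in neither induction. C1GALT1, the core 1 galactosyltransferase, had 81.9, 84.8 and 54.9 with the shRNA induced, against 53.7, 58.5 and 70.9 uninduced. In the Tcf4 derivative it had 125.7, 66.4 and 103.3 induced, against 89.9, 82.1 and 115.3 uninduced. Both pairs of groups overlap, and the changes were 0.26 ± 0.23 (95% interval -0.24 to 0.76) and 0.01 ± 0.23 (-0.49 to 0.50). Its 2 dimmer probe sets, at 11.6 to 46.6 over the 12 arrays, were not called in any comparison.

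C1GALT1C1, the chaperone of that enzyme, had 324.4, 324.1 and 390.9 with the shRNA induced, against 337, 323.5 and 321.1 uninduced. With dominant-negative Tcf4 induced it had 533.5, 514.1 and 513.4, against 492.6, 462.9 and 467.3 uninduced. The second pair did not overlap, but its change of 0.13 ± 0.10 (95% interval -0.07 to 0.34) did not pass (limma adjusted p = 0.314), and that with the shRNA was 0.08 ± 0.10 (-0.13 to 0.28). Both intervals lie well inside a 2-fold change. The other probe set of C1GALT1C1 read 0.9 to 17.2 and was not called.

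GCNT3, the enzyme of core 2 and core 4 branching, had the largest change of the 8 enzymes tested. It had 365, 360.4 and 490.4 with the shRNA induced, against 28.9, 25.8 and 43.8 uninduced. With dominant-negative Tcf4 induced it had 313.7, 288.9 and 273.9, against 76, 65.7 and 64 uninduced. Every induced array was above every uninduced array of both derivatives. The log2 changes were 3.65 ± 0.18 (12.5-fold, limma adjusted p = 2.88e-10) and 2.09 ± 0.18 (4.27-fold, limma adjusted p = 2.59e-07). With the shRNA it ranked 23 among the increases of all 12386 genes tested, and with dominant-negative Tcf4 136.

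B3GNT6, the core 3 synthase, was dim in every group, and its 2 probe sets were highest in different groups. Its brighter probe set had 11.5, 18.1 and 19.9 with the shRNA induced, against 5.2, 13.1 and 2.2 uninduced. With dominant-negative Tcf4 induced it had 6.2, 14.2 and 1.3, against 4.5, 0.6 and 4.3 uninduced. The groups overlap in both derivatives. In the fit over all probe sets the changes were 1.6 ± 0.97 and 0.85 ± 0.97, neither of which passed (limma adjusted p = 0.40 and 0.74). The dimmer probe set read 1 to 8.5, with its highest mean (5.6) in the induced Tcf4 group and its lowest (2.37) in the induced shRNA group. No change in core 3 synthase was detectable at these signals.

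ST6GALNAC1, the sialyl-Tn synthase, changed in opposite directions. It had 608.6, 542.2 and 726.8 with the shRNA induced, against 287.3, 224.1 and 289.1 uninduced. With dominant-negative Tcf4 induced it had 147.3, 162.2 and 164.2, against 323.1, 337.9 and 260.6 uninduced. In neither derivative did the groups overlap, and the induced arrays were the high ones with the shRNA and the low ones with dominant-negative Tcf4. It rose by 1.23 ± 0.14 (2.34-fold, limma adjusted p = 3.72e-06) and fell by 0.95 ± 0.14 (limma adjusted p = 5.09e-05). The array holds 1 probe set with this symbol alone, so no second probe set bears on these values.

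FUT2, which makes the H antigen of secreted mucins, rose in both derivatives. It had 292.7, 320.3 and 351.6 with the shRNA induced, against 241.2, 210.4 and 177.4 uninduced. With dominant-negative Tcf4 induced it had 256.2, 309.2 and 287.1, against 195.3, 185.6 and 188.9 uninduced. In neither derivative did its groups overlap, and the changes were 0.62 ± 0.13 (limma adjusted p = 9.62e-04) and 0.58 ± 0.13 (limma adjusted p = 0.00178). The dimmer probe set had log2 changes of 0.60 ± 0.21 for the shRNA and 0.61 ± 0.21 for dominant-negative Tcf4, which did not pass (adjusted p = 0.084 and 0.076 over all probe sets).

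**Figure D2:**
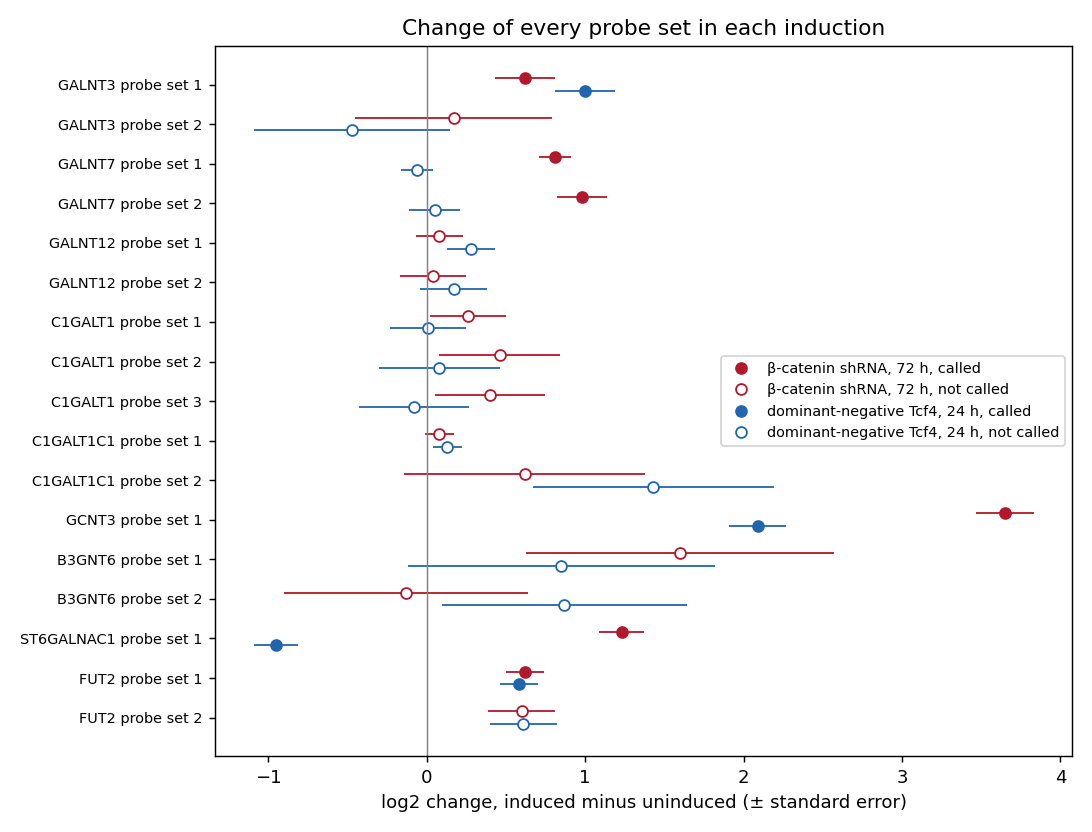
Log2 change (induced minus uninduced, bars show the standard error) of each of the 17 probe sets in the fit over all 54613 probe sets that are not controls, numbered within a gene from the brightest; filled points were called. Both GALNT7 probe sets lie at 0.81 and 0.98 with the shRNA and near 0 with dominant-negative Tcf4, and the widest bars belong to B3GNT6 and other dim probe sets.

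Read probe set by probe set, 6 of 17 rose and none fell with the shRNA, where 11.1% of all probe sets were called (5.33% higher and 5.76% lower). With dominant-negative Tcf4 3 rose and 1 fell, where 11.4% were called (5.34% higher and 6.06% lower). Probe sets of 1 gene share a transcript and are not separate evidence. The calls were those of the brightest probe set of each gene, with the second GALNT7 probe set in addition.

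The difference between the responses was tested as the change with the shRNA minus that with dominant-negative Tcf4. Of 8 genes 3 differed, all toward the shRNA, where 17.6% of all genes were called (9.03% higher and 8.61% lower). Differences of at least 2-fold were called for 2 of 8, against 6.04% of all genes. ST6GALNAC1 differed by 2.18 ± 0.20 (limma adjusted p = 1.60e-06), GCNT3 by 1.56 ± 0.26 (limma adjusted p = 5.95e-04) and GALNT7 by 0.87 ± 0.15 (limma adjusted p = 8.16e-04). GALNT3 (-0.38, 95% interval -0.96 to 0.19) and FUT2 (0.05, -0.33 to 0.42) did not pass. Without uninduced shRNA array 1 the difference for GALNT3 was -0.66 and passed (adjusted p = 0.044). The derivative, the construct and the time after induction differ together, and their parts cannot be told apart.

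**Figure D3:**
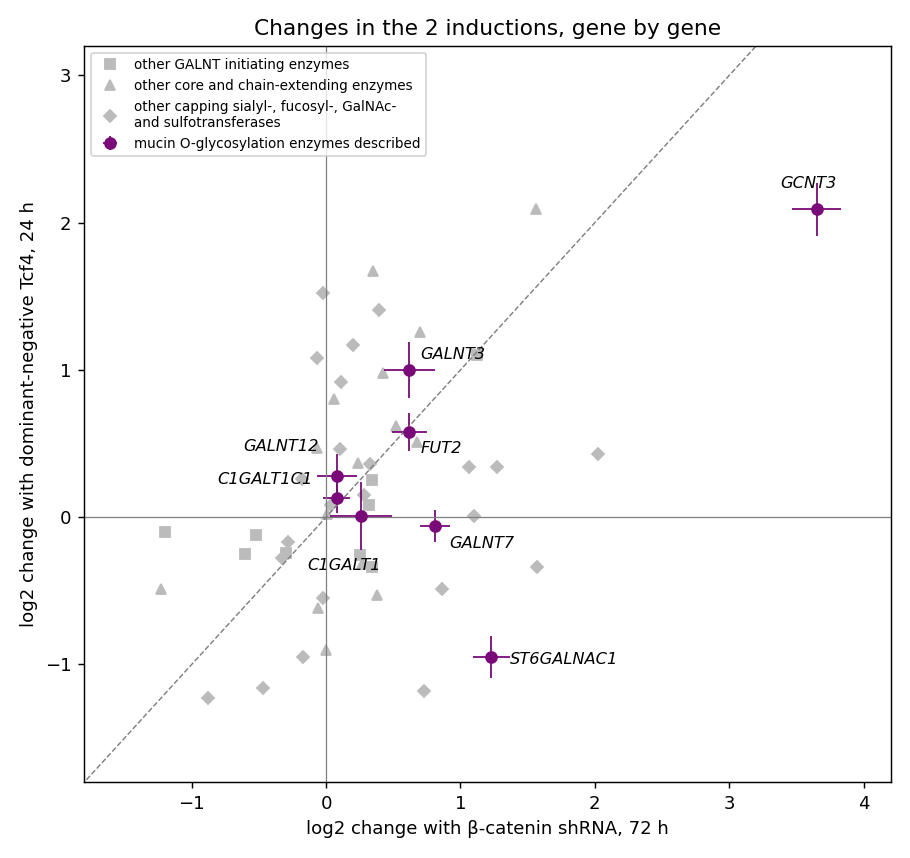
Log2 change with dominant-negative Tcf4 (vertical) against that with the β-catenin shRNA (horizontal) for the 8 genes tested (purple, bars show standard errors). Grey points are the other GALNT, core and chain-extending and capping enzymes listed, not all of which act on mucin O-glycans. The dashed line marks equal changes. GCNT3 stands far to the right at 3.65 and 2.09, and ST6GALNAC1 lies below 0 on the vertical axis and above 0 on the horizontal axis.

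Before induction the derivatives already differed in these genes. In the uninduced Tcf4 derivative minus the uninduced shRNA derivative 4 of 8 were higher and 1 was lower, where 37.3% of all genes were called (16.9% higher and 20.5% lower). At 2-fold or more the share was 2 of 8, against 10.4% of all genes. GALNT12 was lower by 2.52 ± 0.15 on the log2 scale (a change of -2.52, limma adjusted p = 2.23e-09), with its second probe set at -2.47. GCNT3 was higher by 1.10 ± 0.18, GALNT7 by 0.78 ± 0.11 and C1GALT1C1 by 0.54 ± 0.10 (limma adjusted p = 1.75e-04, 2.36e-05 and 3.42e-04). C1GALT1 was higher by 0.64 ± 0.23 (limma adjusted p = 0.04). Its call was lost with no filter (adjusted p = 0.0718), every probe set by itself (0.0904) or no variance trend (0.0758). It was also lost without uninduced shRNA array 1 (0.56) or 2 (0.62), or without uninduced Tcf4 array 1 (0.68) or 3 (0.50). ST6GALNAC1 (0.20), FUT2 (-0.13) and GALNT3 (-0.08) did not pass. GALNT7 and GCNT3, which rose more with the shRNA, were thus the lower in that derivative before induction. The same uninduced arrays enter both comparisons, so the lower start and the larger rise are not separate observations.

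Between the induced states, the Tcf4 derivative minus the shRNA derivative, 1 of 8 was higher and 3 were lower, where 48% of all genes were called (21.1% higher and 26.9% lower). At 2-fold or more it was 2 of 8, against 16.8% of all genes. GALNT12 stood at -2.32 ± 0.15, ST6GALNAC1 at -1.98 ± 0.14 and C1GALT1C1 at 0.59 ± 0.10 (limma adjusted p = 3.15e-09, 7.30e-09 and 7.87e-05). GCNT3 was at -0.46 ± 0.18 (limma adjusted p = 0.048), and that call was lost without induced shRNA array 1 or 3, or without any 1 of the 3 induced Tcf4 arrays. It was lost under 6 other alternatives as well, among them centring on the median (-0.30, adjusted p = 0.19). C1GALT1 (0.39) did not pass, but did without induced Tcf4 array 2 (0.65, adjusted p = 0.0278). The level of GCNT3 thus ran from the induced shRNA group through the induced Tcf4 group and the uninduced Tcf4 group to the uninduced shRNA group, and no neighbouring groups overlap. For ST6GALNAC1 the induced shRNA group was highest and the induced Tcf4 group lowest, and the uninduced groups between them overlap.

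Over the 12 arrays the genes did not share 1 profile. Correlations of log2 signal between pairs of the 8 genes ran from -0.95, for GALNT12 with C1GALT1C1, to 0.83, for GCNT3 with FUT2. The arrays fall into 4 groups, so these values mostly describe group means. The genes most like GCNT3 were CASP1, an inflammatory caspase (r = 0.994), ANXA3, an annexin (0.984), and SEC23A, a coat protein of vesicles that leave the endoplasmic reticulum (0.983). For ST6GALNAC1 they were PPA1 (0.961), SFTPB (0.951) and MPZL2 (0.949), and for FUT2 ATP6V0D1 (0.970), RABAC1 (0.969) and WDR13 (0.965). For GALNT7 they were SGMS1 (0.963), PRSS2 (0.961) and AKR1C2 (0.959), and for GALNT3 DMXL1 (0.971), DOK4 (0.957) and AFF4 (0.934).

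Other GALNT, core and chain-extending and capping enzymes were read from lists, which also hold enzymes that act on other chains. Of 9 other GALNT genes tested, of 16 listed, 1 rose and 2 fell with the shRNA (median 0.25), and 1 rose with dominant-negative Tcf4 (median -0.12). The median over all genes was 0.02 for the shRNA and -0.05 for dominant-negative Tcf4. Over all genes 16.6% were called higher and 17.4% lower with the shRNA, and 16% and 20% with dominant-negative Tcf4. GALNT5 rose by 1.12 ± 0.19 with the shRNA and by 1.10 ± 0.19 with dominant-negative Tcf4. GALNT11 and GALNT6 fell with the shRNA, by 1.20 ± 0.18 and by 0.52 ± 0.13.

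Of 15 other core and chain-extending enzymes tested, of 20 listed, 6 rose and 1 fell with the shRNA (median 0.27). With dominant-negative Tcf4 8 rose and 2 fell (median 0.47). The shares over all genes were 16.6% higher and 17.4% lower with the shRNA, and 16% and 20% with dominant-negative Tcf4. B3GALT4, which acts on gangliosides, rose by 1.56 ± 0.13 with the shRNA and by 2.09 ± 0.13 with dominant-negative Tcf4. B4GALT1, a galactosyltransferase that extends chains, rose by 0.70 and by 1.26. B3GNT3, which extends core 1, rose by 0.35 with the shRNA and by 1.67 with dominant-negative Tcf4, a difference that passed (-1.32 ± 0.18, limma adjusted p = 1.14e-04). B3GNT9 rose by 0.68 and B3GNT4 fell by 1.23 with the shRNA. B3GNT9 also rose with dominant-negative Tcf4, by 0.51, where its groups overlap. B4GALT6 and B4GALT2 fell with dominant-negative Tcf4, by 0.90 and by 0.62.

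The list of other capping enzymes also holds SIAE and CASD1, which modify sialic acid, and both are counted here. Of its 36 entries 23 were tested, and 5 rose and 1 fell with the shRNA (median 0.11). With dominant-negative Tcf4 4 rose and 4 fell (median 0.15). The shares over all genes were 16.6% higher and 17.4% lower with the shRNA, and 16% and 20% with dominant-negative Tcf4. With the shRNA ST3GAL3, a sialyltransferase, rose by 1.57 ± 0.39. Its signal was low, at 44.3 induced and 15 uninduced, the latter near the filter of 10.2. SIAE and CASD1, which remove and add acetyl groups on sialic acid, rose by 1.10 and 1.06. With dominant-negative Tcf4 ST3GAL4 rose by 1.41 and ST6GALNAC4 by 1.08, both sialyltransferases, and FUT3, which makes Lewis antigens, rose by 1.17. FUT3 is close in sequence to FUT5 and FUT6, so its signal is uncertain as to the gene. ST6GAL1 fell in both, by 0.47 with the shRNA and by 1.16 with dominant-negative Tcf4, and ST3GAL2 fell by 0.95 with dominant-negative Tcf4. FUT4, a fucosyltransferase, changed the way ST6GALNAC1 did: it rose by 0.73 ± 0.19 with the shRNA and fell by 1.18 ± 0.19 with dominant-negative Tcf4, and the difference was 1.91 ± 0.27 (limma adjusted p = 1.51e-04).

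Enzymes and carriers that supply sugar and sulfate donors counted 11 higher and 3 lower of 27 tested with the shRNA (median 0.21). With dominant-negative Tcf4 16 rose and 4 fell (median 0.49). The list holds 33 entries. Over all genes 16.6% were called higher and 17.4% lower with the shRNA, and 16% and 20% with dominant-negative Tcf4. SLC35C1, the Golgi carrier of GDP-fucose, rose by 1.23 with the shRNA and by 0.70 with dominant-negative Tcf4. PAPSS2, which makes the sulfate donor, rose by 0.88 with the shRNA and by 0.50 with dominant-negative Tcf4. GFPT1, the entry enzyme of the hexosamine pathway, rose by 0.74 with the shRNA and by 0.82 with dominant-negative Tcf4. SLC35A1, the carrier of CMP-sialic acid, rose by 0.70 with dominant-negative Tcf4. SLC35D1, a carrier of UDP-sugars, rose by 0.91 with the shRNA and fell by 0.44 with dominant-negative Tcf4 (difference 1.35 ± 0.16, limma adjusted p = 2.80e-05). PMM1, a phosphomannomutase, moved the other way: it fell by 0.56 ± 0.19 with the shRNA and rose by 0.54 ± 0.19 with dominant-negative Tcf4 (difference -1.10 ± 0.27, limma adjusted p = 0.00945). FCSK, a fucose kinase, fell by 0.63 with the shRNA and stood at -0.12 with dominant-negative Tcf4. The phosphatase of sialic acid synthesis, NANP, fell in both, by 0.46 and by 0.89, and GMDS, the first enzyme of GDP-fucose synthesis, fell by 0.84 with dominant-negative Tcf4. The sulfate carrier SLC26A2 fell by 0.45 with dominant-negative Tcf4.

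**Figure D4:**
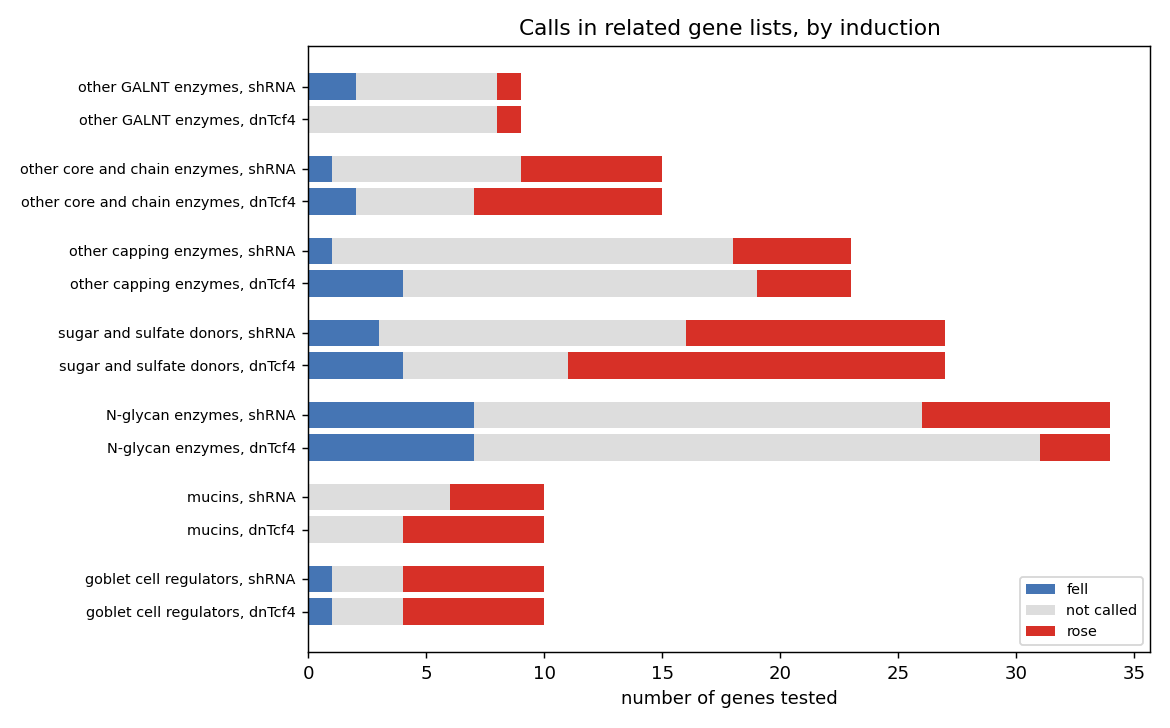
Number of genes tested in each related list (horizontal axis) that fell, were not called or rose, for the β-catenin shRNA and for dominant-negative Tcf4 (dnTcf4). In the list of sugar and sulfate donors 11 of 27 rose with the shRNA, and 16 of 27 rose with dominant-negative Tcf4, where 16.6% and 16% of all genes were called higher.

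Of 10 genes tested for the mucins that carry these chains, 4 rose with the shRNA, 6 rose with dominant-negative Tcf4, and none fell. Among all genes 16.6% were called higher and 17.4% lower for the shRNA, and 16% and 20% for dominant-negative Tcf4. The list holds 15 entries, and its median was 0.60 for the shRNA and 2.36 for dominant-negative Tcf4. MUC2, which forms the gel of colonic mucus, rose by 3.35 ± 0.23 with the shRNA and by 2.15 ± 0.23 with dominant-negative Tcf4. MUC13, a membrane mucin, rose by 0.43 and by 2.57. The gastric-type mucin MUC5AC rose by 2.53 ± 0.57 with the shRNA. MUC20 averaged 291 with dominant-negative Tcf4 induced and 30.7 uninduced, a rise of 3.24, and stood at 0.05 with the shRNA. Other rises started from below the filter of 10.2, where no detection call was available here, so they are given as means without a size of change. MUC5AC averaged 238 with dominant-negative Tcf4 induced and 10 uninduced. The membrane mucin MUC17 averaged 30.6 with the shRNA induced and 5.98 uninduced, and 342 with dominant-negative Tcf4 induced and 8.91 uninduced. MUC5B averaged 13.4 with dominant-negative Tcf4 induced and 1.63 uninduced, and did not pass with the shRNA (0.95). MUC1, MUC3A, MUC4 and MUC6 were called in neither induction.

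Markers of goblet cells were higher too, in part. Of 7 tested, of 8 listed, all 7 rose with the shRNA, and 4 rose with dominant-negative Tcf4, namely MUC2, TFF1, TFF3 and SPINK4. With dominant-negative Tcf4 FCGBP averaged 20.3 induced and 9.09 uninduced, ZG16 6.04 and 3.71, and AGR2 7312 and 6397, and none of these passed. CLCA1, which was not tested, averaged 13.8 with the shRNA induced and 5.5 uninduced, and 9.07 with dominant-negative Tcf4 induced and 11.7 uninduced. The summed signal of the 8 was 14480 to 16313 with the shRNA induced, against 5484 to 6522 uninduced. It was 14025 to 15121 with dominant-negative Tcf4 induced, against 8109 to 9094 uninduced. AGR2 is the brightest of the 8 in every group, and MUC2 is also on the mucin list. Of 4 absorptive enterocyte markers tested, of 6 listed, FABP1, KRT20 and CA1 rose with the shRNA, and FABP1, KRT20 and CA2 with dominant-negative Tcf4. The goblet and enterocyte counts stand against 16.6% of all genes called higher for the shRNA, and 16% for dominant-negative Tcf4. CA2 was not called with the shRNA, at 1 induced and 1.73 uninduced. CA1 was not called with dominant-negative Tcf4, at 12.7 induced and 15.4 uninduced. The 6 summed to 4844 to 6620 with the shRNA induced, against 74 to 84.9 uninduced, and to 1057 to 1203 with dominant-negative Tcf4 induced, against 245 to 308 uninduced. With the shRNA induced FABP1 and KRT20 were the brightest of the 6, at 2509 and 2476. The part of either marker list in the changes of the enzymes was not tested.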

How the data were processed

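Total RNA of 12 samples was hybridised to Affymetrix U133 Plus 2.0 arrays, and per the submitters' processing notes MAS5 and GCOS were used. No version of either is given in the sources used here. The deposited table holds 1 intensity (signal) per probe set and array on a linear scale, with no detection calls and with every array scaled alike. A floor of 1 was applied before the log2. Symbols came from the array's annotation and were updated by Entrez number. For each of 19775 genes the brightest probe set was kept, and 12386 genes with a mean log2 at or above the median of all probe sets (3.35, a signal of 10.2) were tested.

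The test was that of limma 3.58.1 (R 4.3.3), with a mean per group (8 residual and 8.05 prior degrees of freedom, variance trend), with 5 contrasts and two-sided p-values adjusted by Benjamini and Hochberg in each. A second fit covered 54613 probe sets that are not controls. The steps were tested on simulated data. Named genes were all 17 probe sets of the members, up to 3 called increases and 3 called decreases per list and induction without overlap of the groups, all called mucins, and the 3 genes most correlated with each member called in an induction. Some further values of named genes were added after they were seen. The members and lists were chosen with earlier results of these data known. Replicate numbers were checked for pairing: deviations of same-numbered arrays correlated between -0.078 and 0.038, under the threshold of 0.1, so the fit without a block was kept. Alternatives are listed in the closing section. Promoter sequences are from RefSeq; ST6GALNAC1, B3GNT6 and GALNT4 were not matched.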

Additional observations from a re-analysis of the deposited data

Results flagged for a closer look

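The change with the β-catenin shRNA differed from that with dominant-negative Tcf4 for 3 genes, by a test of the difference itself (limma, adjusted over 12386 genes). ST6GALNAC1 had the largest difference, 2.18 on the log2 scale (95% interval 1.77 to 2.60), and its changes had opposite signs on all 3 arrays against all 3 in each derivative. GCNT3 differed by 1.56 (1.01 to 2.10) and rose in both derivatives. GALNT7 differed by 0.87 (0.55 to 1.19), with the shRNA alone called. GCNT3 and GALNT7 were higher in the uninduced Tcf4 derivative than in the uninduced shRNA derivative, by 1.10 and 0.78. ST6GALNAC1 did not pass there (0.20, limma adjusted p = 0.275). The uninduced arrays also enter the difference of the changes, so these values are not separate evidence.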

How the results depend on the processing

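The 21 called changes were refitted under 363 combinations of change and alternative, among them each array left out in turn. None changed direction, and 22 lost their call, all of them for GALNT3 with the shRNA, C1GALT1 between the uninduced derivatives and GCNT3 between the induced derivatives. Counts of called genes stayed within 1.5 times of the value reported except as follows. Without probe sets ending in _x_at or _s_at 4 genes could be tested, since GALNT3, GALNT7, GALNT12 and FUT2 have no other kind, and 2 were called for the shRNA, 2 for dominant-negative Tcf4, 3 between the uninduced derivatives and 2 between the induced ones. With a minimum change of 2-fold 2 were called in each of these 4 comparisons. Changes that were not called and altered sign lay near 0. Centring on the median gave 0.04 for GALNT3 between the uninduced derivatives, 0.07 for GALNT7 between the induced derivatives and 0.00 for C1GALT1 with dominant-negative Tcf4, as did quantile normalization for the last. With an array left out GALNT3 between uninduced derivatives ran from -0.35 to 0.15, and GALNT7 with dominant-negative Tcf4 from -0.11 to 0.02. GALNT12 with the shRNA ran from -0.01 to 0.17, C1GALT1C1 with the shRNA from -0.01 to 0.12, and C1GALT1 with dominant-negative Tcf4 from -0.19 to 0.27. The difference of the changes ran from -0.01 to 0.45 for C1GALT1 and from -0.07 to 0.15 for FUT2. With the replicate number as a block, the calls were 5 for the shRNA and 4 for dominant-negative Tcf4, as without it, and the replicate block changed no call of these genes. The other alternatives were an offset of 3.5 before log2, no filter, a stricter filter (a signal of 78.2), array weights and only the arrays compared. Low signals limit B3GNT6 and the dimmer probe sets.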

Other observations

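N-glycan enzymes, a neighbouring pathway, were called in both directions in each induction. With the shRNA 8 of 34 tested, of 35 listed, rose and 7 fell (median 0.03). With dominant-negative Tcf4 3 rose and 7 fell (median -0.06). Over all genes 16.6% were called higher and 17.4% lower with the shRNA, and 16% and 20% with dominant-negative Tcf4. MGAT5, a branching enzyme, fell by 1.24 ± 0.12 with the shRNA and by 0.61 ± 0.12 with dominant-negative Tcf4. MAN2A1 and ALG10 fell with the shRNA, by 0.82 and by 0.74, and ALG8 and MOGS each fell by 0.57 with dominant-negative Tcf4. ALG8 also fell with the shRNA, by 0.41. MGAT2 rose by 0.94 ± 0.08 and by 0.49 ± 0.08 and ALG2, an early mannosyltransferase, by 0.69 and 0.66, and ALG14 rose by 0.79 with the shRNA. OST4, a subunit of oligosaccharyltransferase, rose by 0.36 and by 0.35.

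Of 10 goblet cell regulators tested, of 12 listed, 6 rose and 1 fell in each induction. Their median was 0.56 for the shRNA and 0.47 for dominant-negative Tcf4. The shares over all genes were 16.6% higher and 17.4% lower with the shRNA, and 16% and 20% with dominant-negative Tcf4. SPDEF, a factor of goblet cell maturation, rose by 1.59 ± 0.18 with the shRNA and by 1.84 ± 0.18 with dominant-negative Tcf4. KLF4 rose by 1.31 and by 2.35, and ELF3 by 1.87 and by 3.01, while FOXA2 fell by 1.01 and by 0.64. ATOH1, which specifies the secretory lineage, was not called in either (-0.34 and -0.28).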
